A study of Homo sapiens with 11 samples.

Results

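The integrated stress response and the unfolded protein response were followed through 36 genes chosen by name, of which 35 had a row in a count table of 19990 genes. This choice was made with earlier results of these data known. Counts of these genes set beside the share of all genes are therefore descriptions and not independent tests. By their textbook roles the genes were sorted into 3 sensors of endoplasmic reticulum (ER) stress, the transcription factor ATF4 itself, 23 genes of the ATF4 arm and 9 genes of the ER arm. The gene without a row, FGF21, is a secreted hormone of the ATF4 arm and its level is not analysed here, which left 22 genes of that arm. All 35 genes passed the filter on low counts, which removed no gene of the table.

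The cells were cardiomyocytes of human origin, made from the established induced pluripotent line WTC11 at passage 63. All wells came from 1 differentiation, started with the GSK3 inhibitor CHIR99021, continued with IWP2, which blocks Wnt secretion, and then kept in RPMI1640 medium with B27 and insulin. To follow the cells as they mature, poly(A) RNA was sequenced from 4 wells at Day 30, from 3 at Day 60 and from 4 at Day 113. No other treatment, genotype or cell line was compared, and the wells are replicates of this 1 differentiation, so every p-value measures the spread between its wells.

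Cells answer several kinds of stress through a shared switch, the phosphorylation of the translation factor eIF2, which slows protein synthesis in general while the mRNA of ATF4 is translated more. ATF4 then raises genes for amino acid synthesis, amino acid uptake and transfer RNA charging, together with its own brakes. Misfolded protein in the ER is read by the sensors PERK, IRE1 and ATF6. PERK feeds into the eIF2 switch, whereas IRE1 and ATF6 act through XBP1 and cleaved ATF6 to raise ER chaperones and the machinery that removes misfolded protein. In heart muscle both responses are known from ischemia, mitochondrial disease and heart failure. Because ATF4 and the sensors are controlled largely after transcription, their mRNA levels are not a readout of their activity.

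Each library held 24.1 to 34.5 times 1000000 counts, and levels are given as counts per 1000000 counts (CPM) after TMM scaling, with gene coordinates on GRCh38 from the GENCODE annotation. The summed CPM of 8 cardiomyocyte markers was 28905 to 38838 at Day 30, 35963 to 40794 at Day 60 and 29678 to 36321 at Day 113, so the labelled cell type had its markers in every well. Markers of other cells and of dividing cells were present as well, and several lists moved with the day. The summed CPM of 7 fibroblast genes was 3353 to 7706, 2068 to 3569 and 5427 to 13033 on the 3 days, and that of 6 endothelial genes was 73.5 to 102.4, 46.9 to 74.5 and 207.9 to 792.9. The sums of 9 liver-type markers were 527 to 1539, 52.1 to 62.8 and 12.7 to 49.0, and those of 6 epithelial markers were 734 to 1197, 433 to 570.1 and 68.3 to 207.2. The sums of 4 smooth muscle genes were 489 to 736, 619 to 846 and 778 to 1214, with 3 of the 4 called higher over the whole course, and those of 5 neural markers were 21.8 to 56.6, 42.1 to 85.99 and 26.6 to 55.9. Those of 5 proliferation genes were 303 to 378, 491 to 708 and 194 to 359.9, with all 5 called lower in the second interval. Among all these markers, TTR and FGB were at 0 in 1 Day 60 well and 1 Day 113 well each, and FGA and SOX2 in 1 Day 113 well each. Day of culture and day of collection cannot be told apart. In such bulk RNA, fewer cells of a type and less RNA per cell cannot be told apart either.

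Across the 35 genes the first interval brought falls and the second brought rises. From Day 30 to Day 60, 9 genes fell and 0 rose in edgeR's quasi-likelihood test at an adjusted p of 0.05, where 10.3% of all genes passed the test, 5.91% lower and 4.39% higher. The count of 0 rises became 1 at an unadjusted p under 0.05 and stayed 0 with DESeq2 and with limma-voom. From Day 60 to Day 113, 16 genes rose and 1 fell, beside 24.0% of all genes that passed, 12.9% higher and 11.1% lower. Between Day 30 and Day 113 directly, called the whole course below, 10 genes rose and 5 fell, beside 34.5% of all genes that passed, 17.3% higher and 17.2% lower. The median log2 fold change of the 35 genes was -0.26, 0.35 and 0.18 in these 3 comparisons, beside -0.011, 0.0016 and -0.018 over all genes tested. In all, 22 of the 35 genes passed the test in at least 1 comparison, and 13 passed it in none.

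Calls were counted in each interval for the ATF4 arm and for the ER arm. Of 22 ATF4-arm genes, 8 fell and 0 rose from Day 30 to Day 60, 11 rose and 1 fell from Day 60 to Day 113, and 5 rose and 4 fell over the whole course, with medians of -0.57, 0.39 and 0.11. Of 9 ER-arm genes, none passed the test in the first interval in either direction with edgeR, DESeq2 or limma-voom, although 1 was lower at an unadjusted p under 0.05. With 1 well left out of the edgeR fit, the adjusted p of PDIA4 reached 0.044 at the lowest, in the lower direction. In that interval 10.3% of all genes passed, so 0 of 9 is near the share of all genes and is no result about the ER arm. In the second interval 5 ER-arm genes rose and 0 fell, and over the whole course 5 rose and 0 fell, with medians of -0.11, 0.46 and 0.36. No ER-arm gene was lower in the second interval or over the whole course at an unadjusted p under 0.05 either. Among all genes, 24.0% passed in the second interval and 34.5% over the whole course. The lists were set side by side as counts, and a difference between the arms was not tested.

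**Figure D1:**
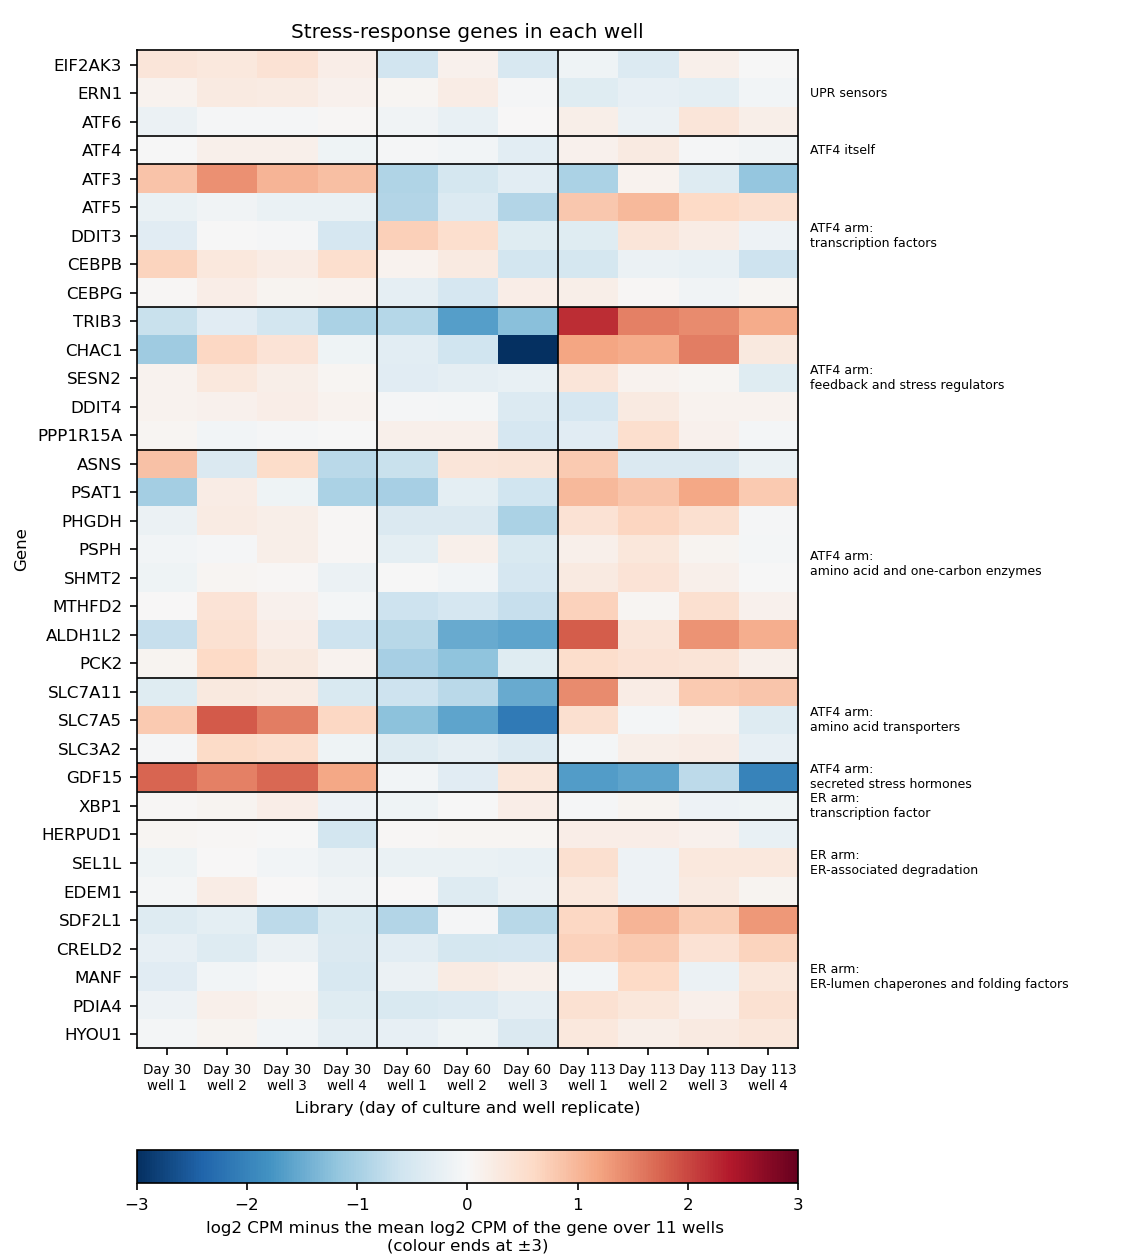
Heat map of the 35 genes (rows, grouped by role) in the 11 wells (columns, grouped by day); colour is the log2 CPM of a well minus the mean log2 CPM of the gene over 11 wells, on a scale that ends at 3 in each direction. TRIB3, PSAT1, SDF2L1 and CRELD2 are high in the 4 Day 113 wells, SLC7A5, PCK2 and MTHFD2 are low in the 3 Day 60 wells, and GDF15 goes from high to low over the 3 days.

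Sequence elements that the stress factors are known to bind were looked up in RefSeq promoters of build GRCh38.p14, which run from 250 bases before to 50 bases after a start site and were found for 32 of the 36 genes. Both strands were searched for the C/EBP-ATF response element (CARE, TGATGNAA), the ER stress response element (ERSE, in which CCAAT and CCACG stand 9 bases apart), ERSE-II (ATTGG and CCACG with 1 base between them) and the unfolded protein response element (UPRE, TGACGTGG). For 11 of the 32 genes more than 1 promoter was searched, and a match in any of them counted. CARE stood in a promoter of 6 of 19 ATF4-arm genes (ASNS, ATF3, CEBPG, CHAC1, FGF21 and SLC3A2) and of 1 of 9 ER-arm genes (HERPUD1), beside 3.21% of the 13692 genes of the table that had a promoter. ERSE stood in the promoters of CRELD2 and XBP1 and in 0.153% of all those genes. ERSE-II stood in the promoters of HERPUD1, HYOU1 and SDF2L1 and in 0.117% of those genes, and UPRE stood in the promoter of HYOU1 and in 1.15% of them. None of the 19 ATF4-arm genes held ERSE, ERSE-II or UPRE in this window. Of the 6 ATF4-arm genes with CARE, FGF21 had no row and could not be tested. Among the rest, CHAC1 alone rose in the second interval, where 12.9% of all genes rose. So few genes give no result about CARE. ASNS and CEBPG, whose stretches are not printed, passed in no comparison, and SLC3A2 and ATF3 fell in the first interval. A match is a description of these letters, and no binding was measured. The stretches below are those of the ER-arm genes with an element, 3 of which rose and 2 of which did not pass the test, and of the ATF4-arm genes CHAC1, which rose in the second interval, and ATF3, which fell in the first. Each is read 5′ to 3′ along the gene's strand with the element in capitals; in HYOU1 the first run of capitals holds UPRE and ERSE-II, which overlap there, and the second holds another ERSE-II.
CRELD2 (chr22:49918542-49918584, plus strand): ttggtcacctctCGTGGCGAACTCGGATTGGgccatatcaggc
SDF2L1 (chr22:21642102-21642136, plus strand): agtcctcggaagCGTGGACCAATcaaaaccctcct
HYOU1 (chr11:119057262-119057405, minus strand): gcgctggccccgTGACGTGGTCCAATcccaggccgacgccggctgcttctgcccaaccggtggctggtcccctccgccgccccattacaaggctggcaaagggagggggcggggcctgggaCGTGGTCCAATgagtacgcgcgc
XBP1 (chr22:28800591-28800633, minus strand): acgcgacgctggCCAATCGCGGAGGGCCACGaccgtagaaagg
HERPUD1 (chr16:56931954-56932047, plus strand): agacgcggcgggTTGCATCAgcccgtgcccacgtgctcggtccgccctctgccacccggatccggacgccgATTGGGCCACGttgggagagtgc
CHAC1 (chr15:40953250-40953281, plus strand): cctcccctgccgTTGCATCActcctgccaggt
ATF3 (chr1:212565204-212565235, plus strand): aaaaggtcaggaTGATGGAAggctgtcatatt

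Of the 3 sensors and ATF4, EIF2AK3 fell in the first interval and ERN1 fell over the whole course, while ATF6 and ATF4 passed in no comparison. EIF2AK3, which encodes the sensor kinase PERK, had 28.3, 27.1, 29.7 and 25.1 CPM in the Day 30 wells, 14.8, 24.1 and 15.6 CPM in the Day 60 wells and 20.2, 16.4, 24.5 and 21.6 CPM in the Day 113 wells. All 3 Day 60 wells lay below the lowest Day 30 well, by a narrow margin in Day 60 well 2. In the first interval EIF2AK3 fell by 0.60 ± 0.18 (log2, SE; adjusted p 0.039), and its later values of 0.19 ± 0.18 against Day 60 and -0.41 ± 0.16 against Day 30 did not pass (adjusted p 0.48 and 0.058). That call was lost under upper-quartile scaling and without any of Day 30 wells 1, 2 and 3 or Day 60 wells 1 and 3 (adjusted p 0.057 to 0.20 where lost, 0.0062 to 0.20 over all its alternatives).

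ERN1, which encodes IRE1, had 15.3, 17.05, 16.8 and 15.4 CPM in the Day 30 wells, 14.7, 16.5 and 13.9 CPM in the Day 60 wells and 11.1, 11.96, 11.6 and 13.5 CPM in the Day 113 wells. The Day 113 wells were all below the other 7 wells. ERN1 fell by 0.42 ± 0.13 (log2, SE; adjusted p 0.018) over the whole course, a call lost without Day 30 well 2 (adjusted p 0.054). ATF6, whose cleaved form is a transcription factor, had 82.5 ± 4.86, 79.9 ± 6.06 and 94.99 ± 14.00 CPM (SD; n = 4, 3 and 4), with overlapping wells and no call. ATF4 had 147, 165, 166 and 136 CPM in the Day 30 wells, 144, 139 and 119 CPM in the Day 60 wells and 163, 178, 144 and 138 CPM in the Day 113 wells. The wells of the 3 days overlapped, and the log2 differences of -0.20 ± 0.11, 0.22 ± 0.11 and 0.02 ± 0.10 (SE) had adjusted p-values of 0.33, 0.18 and 0.90. Per kilobase of exon, ATF4 at 60.96 CPM per kb at Day 30 was second only to DDIT4 (102) among the 35 genes.

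Among the 5 transcription factors that ATF4 is known to raise, ATF5 rose late, while ATF3 and CEBPB ended lower than they began. ATF5 (chr19:49928702-49933935), an activator of the mitochondrial stress response, had 11.04, 11.8, 10.96 and 10.99 CPM in the Day 30 wells, 6.86, 9.47 and 6.81 CPM in the Day 60 wells and 21.97, 24.6, 18.9 and 17.5 CPM in the Day 113 wells. Every Day 113 well was above every earlier well, and every Day 60 well was below every Day 30 well. ATF5 rose by 1.43 ± 0.17 (log2, SE; 2.69-fold; adjusted p 4.3e-05) in the second interval and by 0.89 ± 0.15 over the whole course, after a first difference of -0.54 ± 0.17 that did not pass (adjusted p 0.056). Of the exons of ATF5, 21.2% overlap those of NUP62 on the opposite strand, and NUP62 did not pass the test in any of the 3 comparisons (log2 -0.11, 0.10 and -0.01).

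ATF3 (chr1:212565334-212620777), an early stress factor that often represses its targets, had 28.5, 40.7, 32.1 and 29.2 CPM in the Day 30 wells, 8.46, 10.9 and 12.5 CPM in the Day 60 wells and 8.14, 16.9, 12.01 and 6.98 CPM in the Day 113 wells. The Day 30 wells were all higher than the 7 later wells, which overlapped. ATF3 fell by 1.62 ± 0.26 (log2, SE; 3.07-fold; adjusted p 8.2e-04) from Day 30 to Day 60 and stood -1.57 from Day 30 at Day 113 (adjusted p 9.0e-05). CEBPB, a C/EBP factor of inflammation and metabolism, fell by 0.81 ± 0.17 (SE; adjusted p 0.0016) over the whole course, with 29.7 to 40.6 CPM at Day 30 and 16.5 to 22.5 CPM at Day 113. Of its exon length, 11.8% overlaps the antisense gene CEBPB-AS1, which rose by 1.39 on the log2 scale over the same course (adjusted p 0.0024). DDIT3, which encodes the death-associated factor CHOP, was at 13.4 ± 2.16, 19.8 ± 7.03 and 15.98 ± 3.64 CPM (SD) on the 3 days, and CEBPG, a dimer partner of ATF4, at 36.1 ± 1.82, 30.02 ± 7.58 and 34.7 ± 2.89 CPM. Neither passed the test in any comparison. Of the exons of DDIT3, 27.2% overlap those of MARS, a synthetase gene that rose by 0.61 on the log2 scale in the second interval (adjusted p 0.0011) and by 0.29 over the whole course (adjusted p 0.035).

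TRIB3 (chr20:362835-397559), a pseudokinase that binds ATF4 and restrains it, showed the largest rise of the 35 genes in the second interval and over the whole course. It had 7.72, 9.77, 8.42 and 6.39 CPM in the Day 30 wells, 6.77, 3.94 and 5.17 CPM in the Day 60 wells and 57.7, 35.4, 32.9 and 26.6 CPM in the Day 113 wells. The lowest Day 113 well was above the highest earlier well by a wide margin, and Day 113 well 1 was the highest of all. TRIB3 rose by 2.85 ± 0.27 (log2, SE; 7.19-fold; adjusted p 6.4e-06) in the second interval and by 2.24 ± 0.23 (4.72-fold; adjusted p 2.6e-06) over the whole course, and both calls held under every alternative tried (adjusted p 2.2e-25 to 1.6e-04 and 1.0e-19 to 3.3e-05).

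CHAC1, which degrades glutathione, had 1.34, 4.30, 3.72 and 2.58 CPM in the Day 30 wells, 2.23, 1.84 and 0.347 CPM in the Day 60 wells and 6.32, 6.11, 8.13 and 3.41 CPM in the Day 113 wells. All Day 113 wells were above the Day 60 wells but overlapped those of Day 30, and Day 60 well 3 was the lowest. CHAC1 rose by 2.03 ± 0.53 (log2, SE; adjusted p 0.011) in the second interval, and its whole-course difference of 1.00 ± 0.46 did not pass (adjusted p 0.10). SESN2 and DDIT4, which restrain mTORC1, and PPP1R15A, which encodes the eIF2 phosphatase subunit GADD34, passed in no comparison. At Day 113 they were at 25.2 ± 5.00, 195 ± 41.1 and 69.6 ± 17.1 CPM (SD, n = 4), and at Day 30 at 26.9 ± 2.12, 211 ± 6.69 and 64.6 ± 2.72 CPM. Of these 5 regulators TRIB3 and CHAC1 are thus the ones that rose in the second interval.

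The 8 enzymes and 3 transporters of amino acid supply are 11 of the 22 genes of the ATF4 arm. They held 6 of its 8 falls in the first interval, where 0 rose, 8 of its 11 rises in the second, where 0 fell, and 4 of its 9 calls over the whole course, 3 higher and 1 lower. No test compared them with the rest of the arm. Their medians were -0.67, 0.99 and 0.23. At an unadjusted p under 0.05, or with DESeq2 or limma-voom, the 2 counts of 0 stayed 0.

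Serine is made in 3 steps by PHGDH, PSAT1 and PSPH. PSAT1 (chr9:78297143-78330093), the transaminase of the second step, had 11.5, 27.3, 21.3 and 11.99 CPM in the Day 30 wells, 11.6, 18.9 and 15.3 CPM in the Day 60 wells and 45.9, 41.6, 52.4 and 40.4 CPM in the Day 113 wells. The Day 113 wells were all higher than any earlier well, and the Day 30 and Day 60 wells overlapped, with Day 30 wells 2 and 3 above the rest of them. PSAT1 rose by 1.56 ± 0.26 (log2, SE; 2.96-fold; adjusted p 5.7e-04) in the second interval and by 1.32 ± 0.24 (adjusted p 4.5e-04) over the whole course. PHGDH, which catalyses the first and committed step, had 73.8, 99.4, 93.7 and 85.9 CPM in the Day 30 wells, 62.04, 61.5 and 43.2 CPM in the Day 60 wells and 113, 129, 116 and 81.6 CPM in the Day 113 wells. The Day 60 wells were the lowest 3, and the Day 30 and Day 113 wells overlapped. PHGDH fell by 0.67 ± 0.16 (SE; adjusted p 0.014) and then rose by 0.99 ± 0.16 (adjusted p 4.8e-04), which left no called change over the whole course (0.32 ± 0.15, adjusted p 0.11). The fall was lost without Day 30 well 2 or Day 60 well 3 (adjusted p 0.056 to 0.092). PSPH, the phosphatase of the last step, stayed between 21.2 and 37.2 CPM in all wells and passed in no comparison.

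Serine feeds one-carbon metabolism in mitochondria through SHMT2, MTHFD2 and ALDH1L2. ALDH1L2 (chr12:105019784-105084577), which makes NADPH and CO2 from formyl-folate, had 5.35, 11.9, 9.87 and 5.63 CPM in the Day 30 wells, 4.82, 3.02 and 2.87 CPM in the Day 60 wells and 30.5, 11.1, 21.9 and 18.3 CPM in the Day 113 wells. The Day 60 wells were the lowest, and Day 113 well 1 was the highest while Day 113 well 2 lay within the range of Day 30. ALDH1L2 fell by 1.20 ± 0.35 (log2, SE; adjusted p 0.037), rose by 2.52 ± 0.36 (5.73-fold; adjusted p 1.6e-04) and ended 1.32 above Day 30 (adjusted p 0.0033). The fall was lost under limma-voom, with robust dispersions, and without Day 30 well 2 or 3 or Day 60 well 2 or 3 (adjusted p 0.055 to 0.17).

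MTHFD2, a mitochondrial folate dehydrogenase, had 41.9, 55.04, 45.2 and 39.7 CPM in the Day 30 wells, 27.03, 29.4 and 25.6 CPM in the Day 60 wells and 66.6, 43.2, 57.8 and 45.3 CPM in the Day 113 wells. The Day 60 wells were all below the others. MTHFD2 fell by 0.73 ± 0.15 (log2, SE; adjusted p 0.0063) and rose by 0.96 ± 0.16 (adjusted p 4.2e-04), and its whole-course value of 0.23 ± 0.14 did not pass (adjusted p 0.23). Its exons overlap those of SLC4A5 on the opposite strand over 27.2% of their length, and SLC4A5 did not pass in either interval (log2 0.45 and 0.33) but rose by 0.79 over the whole course (adjusted p 0.023). SHMT2, which splits serine, rose by 0.40 ± 0.13 (adjusted p 0.033) from Day 60 to Day 113, with 46.8 to 65.5 CPM at Day 60 and 65.7 to 87.4 CPM at Day 113. This call was lost under upper-quartile scaling, in a fit of the 2 days alone, and without Day 60 well 3 or Day 113 well 1 or 2 (adjusted p 0.055 to 0.17).

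PCK2, the mitochondrial form of phosphoenolpyruvate carboxykinase, had 12.3, 17.7, 14.3 and 12.5 CPM in the Day 30 wells, 5.84, 5.01 and 9.02 CPM in the Day 60 wells and 16.7, 15.6, 15.3 and 12.8 CPM in the Day 113 wells. The 3 Day 60 wells were the lowest of the 11, and the Day 30 and Day 113 wells overlapped. PCK2 fell by 1.10 ± 0.21 (log2, SE; 2.14-fold; adjusted p 0.0035) and rose by 1.19 ± 0.21 (2.28-fold; adjusted p 8.8e-04), ending 0.09 from Day 30 (adjusted p 0.75). ASNS, which makes asparagine and is a classical ATF4 target, was counted at 0.893 to 2.86 CPM over the 11 wells, the lowest level per kilobase of exon of the 35 genes at Day 30 (0.406 CPM per kb). It passed in no comparison, with log2 differences of -0.10 ± 0.50, -0.07 ± 0.50 and -0.17 ± 0.46 (SE). The read-through gene CZ1P-ASNS has a row of its own in the table, and another annotated transcript on the same strand covers 44.6% of the exon length of ASNS, so the ASNS counts are uncertain.

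SLC7A5 (chr16:87830023-87869488) had the largest fall of the 35 genes in the first interval. It encodes LAT1, which brings leucine and other large neutral amino acids into the cell, and it had 66.5, 139, 113 and 59.8 CPM in the Day 30 wells, 16.6, 13.05 and 8.96 CPM in the Day 60 wells and 54.4, 37.5, 42.1 and 29.6 CPM in the Day 113 wells. The 3 days did not overlap: Day 30 was highest, with wells 2 and 3 far above wells 1 and 4, Day 60 was lowest and Day 113 lay between. SLC7A5 fell by 2.88 ± 0.30 (log2, SE; 7.36-fold; adjusted p 2.5e-05) and rose by 1.67 ± 0.29 (3.19-fold; adjusted p 7.5e-04), and Day 113 was below Day 30 by 2.31-fold (log2 -1.21 ± 0.25, adjusted p 0.0016). SLC3A2, the heavy chain that carries LAT1 and xCT to the membrane, fell by 0.62 ± 0.17 (adjusted p 0.026) in the first interval, with 44.9 to 73.7 CPM at Day 30 and 37.3 to 40.9 CPM at Day 60. Without Day 30 well 2 or 3 or any 1 of the Day 60 wells, this call was lost (adjusted p 0.054 to 0.11).

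SLC7A11, the light chain of the cystine importer xCT, had 4.62, 7.31, 7.04 and 4.36 CPM in the Day 30 wells, 3.86, 3.39 and 2.08 CPM in the Day 60 wells and 15.9, 7.01, 10.2 and 10.6 CPM in the Day 113 wells. The Day 60 wells were the lowest 3 and Day 113 well 1 was the highest. SLC7A11 rose by 1.82 ± 0.31 (log2, SE; 3.52-fold; adjusted p 7.0e-04) in the second interval and by 0.91 ± 0.27 (adjusted p 0.017) over the whole course, the latter with overlapping wells and lost without Day 30 well 1 or 4 or Day 113 well 1 (adjusted p 0.054 to 0.068). Its first difference of -0.91 ± 0.31 did not pass (adjusted p 0.075).

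GDF15 (chr19:18374731-18389176), a secreted hormone of cell stress that acts on appetite and is raised in heart disease, was the one gene called lower in both intervals. It had 19.3, 16.5, 19.1 and 12.9 CPM in the Day 30 wells, 5.43, 4.57 and 7.29 CPM in the Day 60 wells and 1.79, 1.91, 3.34 and 1.44 CPM in the Day 113 wells. No day shared its range with another, and the level stepped down at each collection. From Day 30 to Day 60, GDF15 fell by 1.55 ± 0.27 (log2, SE; adjusted p 0.0017), and from Day 60 to Day 113 by 1.43 ± 0.27 (adjusted p 0.0014), in all by 2.98 ± 0.26, which is 7.91-fold (adjusted p 5.4e-07). The epithelial and liver-type marker sums given above also stepped down at both collections, and their part in this result was not tested.

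**Figure D2:**
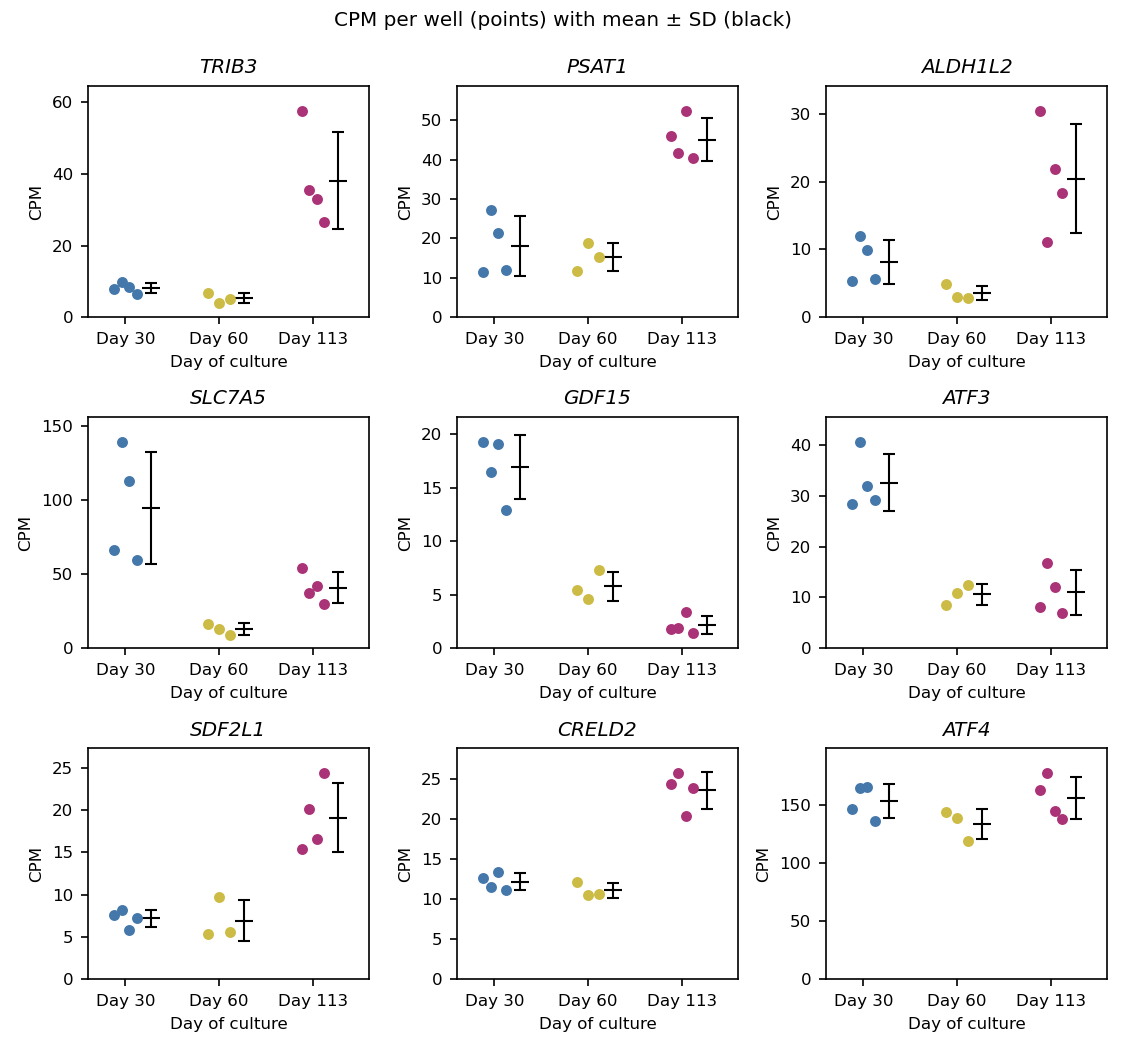
CPM (linear axes from 0) of 9 genes in each well (points, by day) with the mean and SD of each day in black (n = 4, 3 and 4 wells). TRIB3, PSAT1, SDF2L1 and CRELD2 have all Day 113 wells above the earlier ones, SLC7A5 is lowest at Day 60, GDF15 and ATF3 are highest at Day 30, and the ATF4 wells overlap.

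In the ER arm, 4 of the 5 ER-lumen chaperones and folding factors rose late. SDF2L1 (chr22:21642261-21644298), a partner of the chaperone BiP, had 7.64, 8.14, 5.76 and 7.21 CPM in the Day 30 wells, 5.39, 9.69 and 5.58 CPM in the Day 60 wells and 15.4, 20.2, 16.5 and 24.4 CPM in the Day 113 wells. All 4 Day 113 wells were above all earlier wells, and the Day 30 and Day 60 wells overlapped. SDF2L1 rose by 1.47 ± 0.24 (log2, SE; 2.78-fold; adjusted p 3.9e-04) in the second interval and by 1.41 ± 0.21 (adjusted p 1.1e-04) over the whole course. CRELD2 (chr22:49918167-49927540), a cysteine-rich ER-resident protein induced by ER stress, had 12.7, 11.5, 13.4 and 11.2 CPM in the Day 30 wells, 12.2, 10.5 and 10.6 CPM in the Day 60 wells and 24.3, 25.8, 20.3 and 23.9 CPM in the Day 113 wells. Its Day 113 wells again lay above all others, with little spread within any day. CRELD2 rose by 1.09 ± 0.14 (2.13-fold; adjusted p 8.6e-05) in the second interval and by 0.95 ± 0.13 (adjusted p 4.2e-05) over the whole course.

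PDIA4, a protein disulfide isomerase, had 106, 131, 125 and 92.7 CPM in the Day 30 wells, 85.7, 88.8 and 98.5 CPM in the Day 60 wells and 164, 151, 132 and 163 CPM in the Day 113 wells. The Day 113 wells were the 4 highest, by a margin of under 1 CPM over Day 30 well 2. PDIA4 rose by 0.74 ± 0.12 (log2, SE; 1.67-fold; adjusted p 5.6e-04) and stood 0.42 above Day 30 (adjusted p 0.0089). HYOU1, a large Hsp70-type chaperone that exchanges nucleotide on BiP, rose by 0.54 ± 0.11 (adjusted p 0.0018) and stood 0.36 above Day 30 (adjusted p 0.0091), with 80.8 to 103, 72.4 to 89.5 and 109 to 124 CPM on the 3 days. The Day 113 wells of HYOU1 were above all others. MANF, a secreted ER stress factor, had 20.8, 24.98, 26.2 and 18.96 CPM in the Day 30 wells, 23.2, 30.95 and 29.1 CPM in the Day 60 wells and 24.97, 39.4, 23.2 and 33.2 CPM in the Day 113 wells, with overlapping wells and no call (0.41 ± 0.17 over the whole course, adjusted p 0.076).

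The other ER-arm genes moved less. SEL1L, the adaptor of the ubiquitin ligase that clears misfolded ER protein, had 125, 139, 131 and 123 CPM in the Day 30 wells, 119.9, 121 and 119 CPM in the Day 60 wells and 191, 125, 173 and 172 CPM in the Day 113 wells. The Day 113 wells were above the Day 60 wells, but well 2 of Day 113 fell within the Day 30 range. SEL1L rose by 0.46 ± 0.12 (log2, SE; adjusted p 0.011) in the second interval and by 0.35 ± 0.11 (adjusted p 0.021) over the whole course, the latter lost without Day 30 well 1 or 4 or Day 113 well 1 or 3 (adjusted p 0.053 to 0.064). HERPUD1 and EDEM1, which act in the same removal pathway, and XBP1, the factor that IRE1 activates by splicing its mRNA, passed in no comparison. Over the whole course their log2 differences were 0.18 ± 0.14, 0.12 ± 0.13 and -0.10 ± 0.10 (SE). Counts per gene do not separate spliced from unspliced XBP1.

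**Figure D3:**
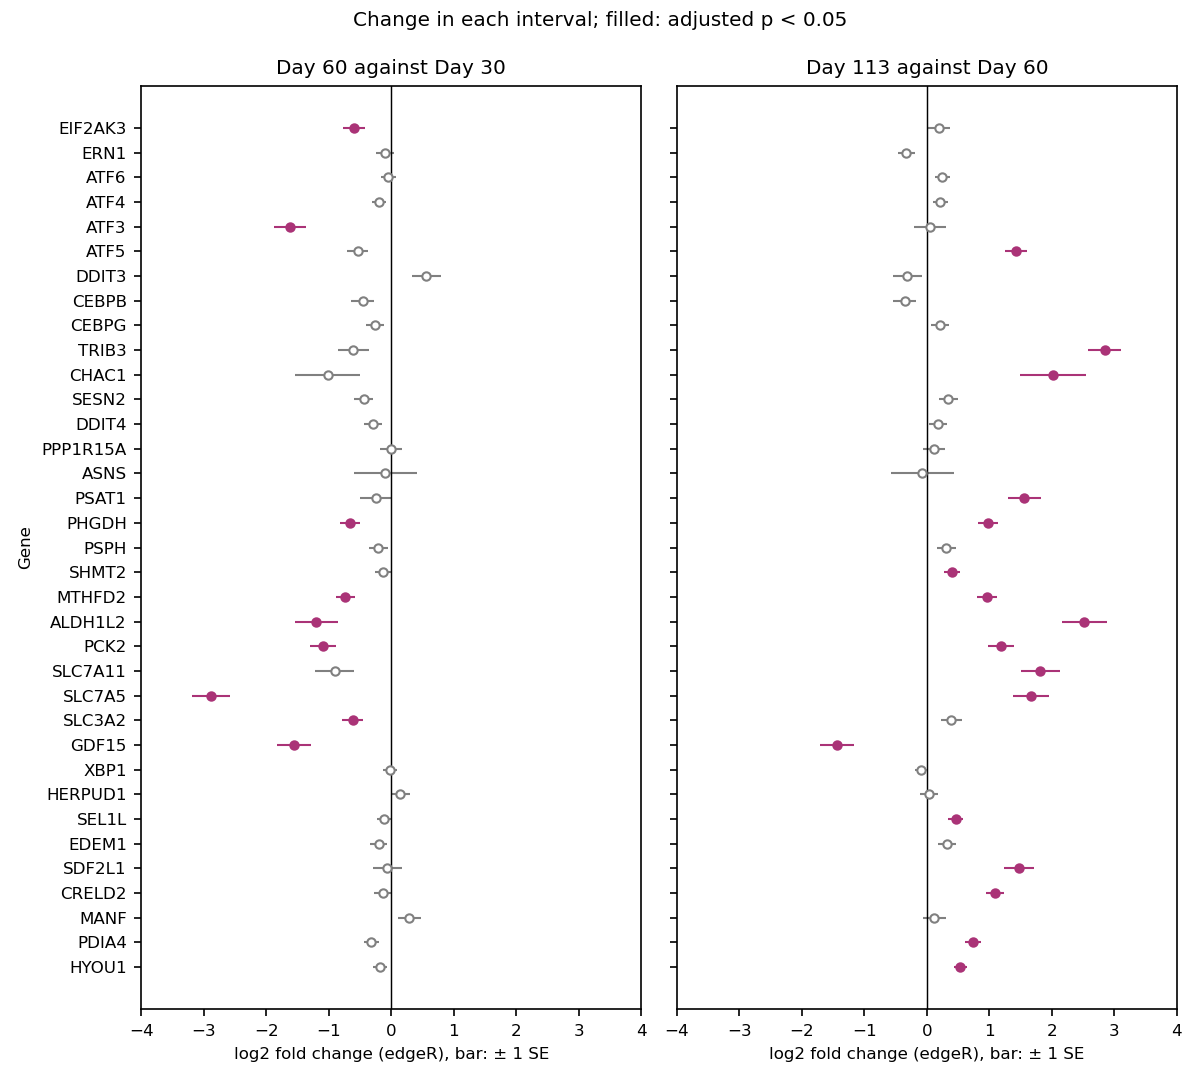
Log2 fold change of the 35 genes from Day 30 to Day 60 (left) and from Day 60 to Day 113 (right), with bars of 1 SE from edgeR and filled points where the adjusted p was under 0.05. On the left 9 points are filled, all below 0, and on the right 17 are filled, 16 above 0 and GDF15 below.

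Whether the change in the second interval differed from that in the first was tested as a contrast of its own. It was called for 15 of the 35 genes, all with the more positive change in the second interval, against 9.34% of all genes; at an unadjusted p under 0.05, 1 gene differed in the other direction, and none did so with DESeq2 or limma-voom. The 15 genes were 11 of the ATF4 arm and 4 of the ER arm. The difference was largest for SLC7A5 at 4.55 ± 0.56 (log2, SE; adjusted p 3.9e-04), followed by ALDH1L2 at 3.72 ± 0.66 (adjusted p 0.0029) and TRIB3 at 3.45 ± 0.48 (adjusted p 7.8e-04). Both intervals use the 3 Day 60 wells, and without Day 60 well 1 or without Day 60 well 3 the count was 9. Among them, 5 genes of amino acid and one-carbon supply (PHGDH, MTHFD2, ALDH1L2, PCK2 and SLC7A5) fell in the first interval and rose in the second, a pattern that 1.45% of all genes had. The first falls of PHGDH and ALDH1L2 were lost without some single wells, as given above.

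The amino acid genes and the ER-lumen genes can also be followed by well. For the 11 amino acid enzymes and transporters, the median log2 deviation from each gene's mean over all wells was -0.07, 0.29, 0.19 and -0.13 in Day 30 wells 1 to 4, -0.62, -0.44 and -0.61 in the Day 60 wells and 0.52, 0.34, 0.39 and -0.01 in Day 113 wells 1 to 4. The Day 60 wells were the lowest, Day 30 and Day 113 overlapped, and Day 113 well 4 lay among the Day 30 wells. For the 5 ER-lumen genes it was -0.25, -0.07, -0.08 and -0.43 at Day 30, -0.31, -0.12 and -0.43 at Day 60, and 0.47, 0.58, 0.27 and 0.46 at Day 113, so the earlier days overlapped and Day 113 lay above both. The summed fibroblast markers were at 2068 to 3569 CPM in the Day 60 wells, close to Day 30 well 4 (3353 CPM), and were highest within Day 30 in wells 2 and 3 (7706 and 6796 CPM) and within Day 113 in wells 1 and 3 (13033 and 11264 CPM). Of the 7 fibroblast genes, 4 rose in the second interval, 1 fell and 2 did not pass, from COL1A1, a collagen gene that rose by 1.93 ± 0.34 on the log2 scale (adjusted p 8.1e-04), to PDGFRA, a growth factor receptor gene that fell by 1.58 ± 0.15 (adjusted p 7.2e-06). All 6 endothelial markers rose and all 5 proliferation genes fell in the same interval. The part of these markers in the results for the amino acid and ER-lumen genes was not tested.

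**Figure D4:**
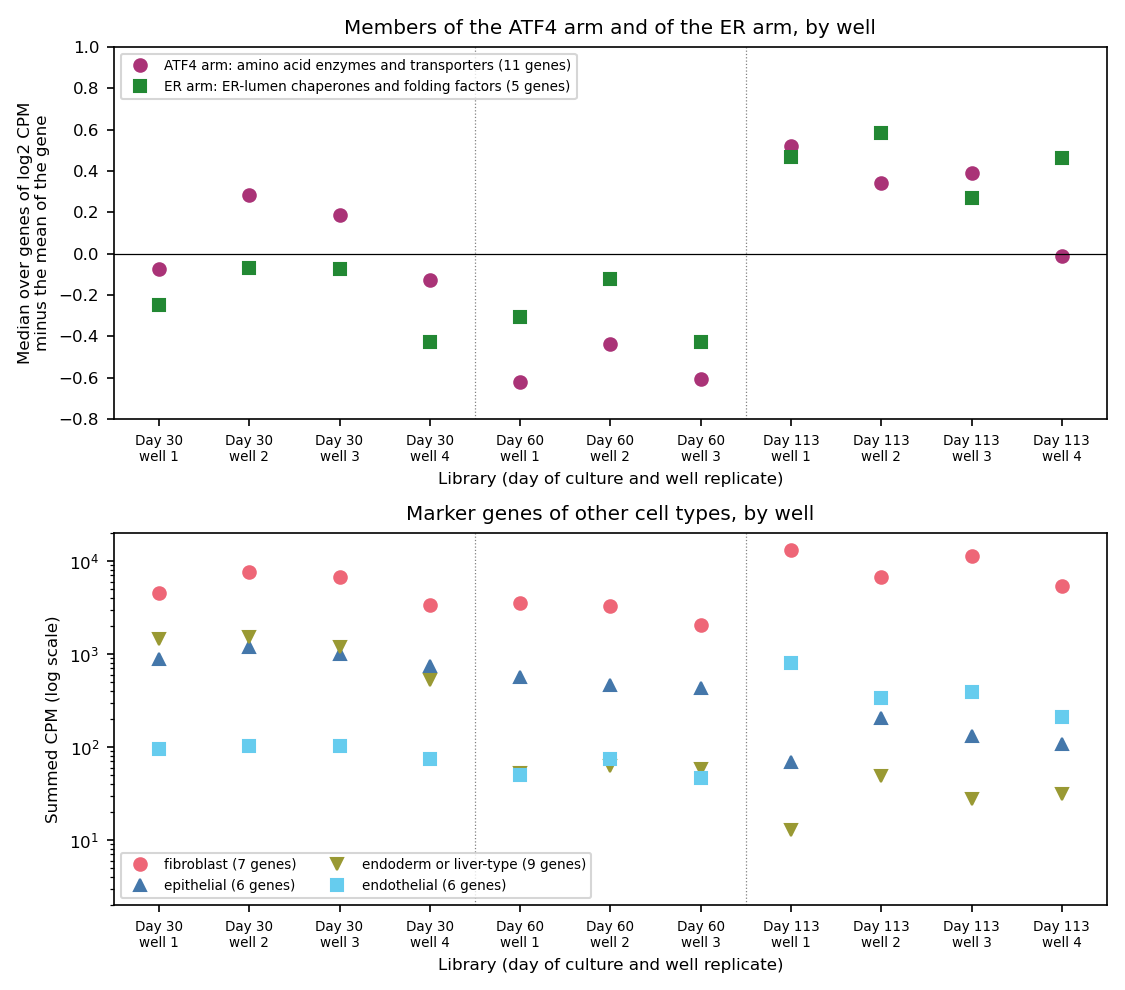
By well, the median log2 deviation of 11 amino acid genes and of 5 ER-lumen genes from each gene's mean (top), and the summed CPM of 4 marker lists on a log axis (bottom). The amino acid genes are lowest in the Day 60 wells (-0.62 to -0.44), the ER-lumen genes are highest in the Day 113 wells (0.27 to 0.58), and fibroblast sums range from 2068 to 13033 CPM.

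Other genes of the same pathways were counted on lists drawn up by textbook role, to be read beside the 10.3%, 24.0% and 34.5% of all genes called in the 3 comparisons. Over the whole course, 41.7% of the other eIF2 genes, 57.9% each of the other ATF4 targets and ER chaperones, 7 of 14 synthetases, 28.6% of the ER-bound factors, 22.2% of the mitochondrial genes and 7.69% of the other degradation genes were called. In the second interval, where 24.0% of all genes were called, the shares of the ER chaperones and the degradation genes were 31.6% and 30.8%. A share near that of all genes is no result about a list. Of 12 other parts of the eIF2 switch, none passed in the first interval (1 lower at an unadjusted p under 0.05, and none with DESeq2 or limma-voom), 4 rose and 2 fell in the second, and 3 rose and 2 fell over the whole course. EIF2B3 and EIF2B1, subunits of the exchange factor that phosphorylated eIF2 blocks, and EIF2S1, the subunit that is phosphorylated, rose by 0.63 ± 0.13, 0.34 ± 0.11 and 0.40 ± 0.08 (log2, SE) over the whole course. PPP1R15B, the constitutive phosphatase subunit, and EIF2AK1, the heme-regulated eIF2 kinase, fell by 0.49 ± 0.09 and 0.46 ± 0.09.

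Of 19 other ATF4 targets, 3 rose and 6 fell in the first interval, 7 rose and 1 fell in the second, and 5 rose and 6 fell over the whole course, with medians of -0.34, 0.32 and -0.07. NUPR1, a small stress-induced chromatin protein, rose in both intervals, by 2.72 ± 0.58 and 2.53 ± 0.53, and by 5.26 ± 0.57 in all (log2, SE; adjusted p 4.6e-06). FAM129A, also called NIBAN1, rose by 2.52 ± 0.18 and the neutral amino acid transporter SLC1A4 by 0.99 ± 0.10 over the whole course. The glutamine transporter SLC1A5 fell by 1.14 ± 0.17 and then rose by 0.50 ± 0.17, ending -0.64 from Day 30. CBS, which starts cysteine synthesis from homocysteine, and PYCR1, which makes proline, fell by 0.67 ± 0.24 and 0.67 ± 0.11 over the whole course.

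Of the cytosolic aminoacyl-tRNA synthetases, which charge transfer RNAs, 14 of 18 listed were matched to a row, all 14 by an older symbol. None passed in the first interval, although 5 were lower at an unadjusted p under 0.05 (none with DESeq2 or limma-voom), 5 rose and 1 fell in the second interval, and 6 rose and 1 fell over the whole course. WARS, for tryptophan, rose by 1.67 ± 0.15 (log2, SE; 3.17-fold; adjusted p 4.6e-06) in the second interval, and RARS and AARS rose by 0.52 ± 0.10 and 0.33 ± 0.09 over the whole course, while QARS fell by 0.61 ± 0.09.

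Of 19 other ER chaperones and folding factors, 0 rose and 5 fell in the first interval (0 higher also at an unadjusted p under 0.05 and with DESeq2 or limma-voom), 5 rose and 1 fell in the second, and 6 rose and 5 fell over the whole course, with medians of -0.15, 0.26 and 0.10. FICD, which modifies BiP, ERO1B, an oxidase of the ER, and DNAJB11, a co-chaperone of BiP, rose by 1.01 ± 0.32, 0.91 ± 0.18 and 0.72 ± 0.10 (log2, SE) over the whole course. The oxidase ERO1A fell by 1.37 ± 0.18, the collagen-folding isomerase FKBP14 by 0.72 ± 0.12 and the disulfide isomerase TXNDC5 by 0.69 ± 0.23. The list thus moved in both directions over the whole course.

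Of 13 other genes of ER-associated degradation, 0 rose and 2 fell in the first interval, 4 rose and 0 fell in the second, and 0 rose and 1 fell over the whole course. The one that fell was EDEM3, a mannosidase of this pathway, by 0.44 ± 0.12 (log2, SE). The 0 falls of the second interval became 1 at an unadjusted p under 0.05 and 1 each with DESeq2 and limma-voom, and the 0 rises over the whole course became 1 at an unadjusted p and stayed 0 with the other tools. Of 7 ER-bound transcription factors and proteases in the table, 4 fell in the first interval and 4 rose in the second. MBTPS1, the site-1 protease that starts the cleavage of ATF6, rose by 0.69 ± 0.10 over the whole course, and CREB3L2, an ER-bound factor that raises secretory genes, fell by 0.98 ± 0.11. In the mitochondrial unfolded protein response (9 genes in the table), none passed in either interval with edgeR, where DESeq2 called 1 higher in the first interval and 1 lower in the second, limma-voom called none, and 1 was higher in the first and 1 higher and 1 lower in the second at an unadjusted p under 0.05. Over the whole course the chaperone HSPA9 rose by 0.36 ± 0.08 and the chaperone TRAP1 fell by 0.38 ± 0.09.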

How the data were processed

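Poly(A) RNA of 11 wells was sequenced as paired-end 150-bp reads, per the labels' protocols. The authors deposited read counts for 19990 gene symbols, made with STAR 2.5.3a, featureCounts 2.0.3 and build hg38, per the submitters' processing notes; the annotation and the strand setting are not given in the sources used here. Of the 35 genes, 14 share exon sequence with another annotated gene. For 10 of the 35, a gene of the table overlaps in exon sequence or in its RefSeq span. EIF2AK3, ASNS and PCK2 are among these 10 by span only, and PCK2 is not among the 14. Counts of overlapping genes can mix. The authors also deposited TPM values, which were left out because the gene lengths they imply did not correlate between libraries (median Spearman rho -0.0014 over 55 pairs).

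Counts were tested with edgeR 4.0.16 in R 4.3.3 (glmQLFit and glmQLFTest, TMM factors 0.966 to 1.04, all 11 libraries in one fit by day). P-values were adjusted by Benjamini-Hochberg over 19990 genes within each comparison, with a threshold of 0.05, and every adjusted p is from this test unless another tool is named. Filtering by filterByExpr (minimum count 10) removed no gene, and the lowest total of a gene was 35 counts. Standard errors were computed as the size of the log2 fold change over the root of its F statistic. Library totals were 24.1 to 34.5 times 1000000 counts and the biological coefficient of variation was 0.282. On simulated counts for 19286 genes in the comparison of Day 113 with Day 30, 86% of 2-fold and 100% of 4-fold changes were recovered, with 12 false among 198 calls. The changed genes were drawn from the better expressed ones and changed at Day 113 alone. Recovery for genes of low counts and for comparisons with Day 60 was not simulated.

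Alternatives were other scalings (RLE, upper quartile, library totals), DESeq2 1.42.0, limma-voom (limma 3.58.1), robust dispersions, other filters, a fit of the 2 days compared, a replicate block, each well left out in turn, a threshold of 0.01 and narrower lists. Same-numbered wells deviated together between Day 30 and Day 113 (correlations 0.13 to 0.16 in 4 of 4 pairs). In each of the other comparisons 2 of 3 same-numbered pairs were over 0.1. Their correlations were 0.055 to 0.16 for Day 30 and Day 60, and 0.0075 to 0.29 for Day 60 and Day 113. Some wells of unlike number also deviated together, with a correlation of 0.22 for Day 60 well 3 and Day 113 well 4. Between Day 30 and Day 113 the highest value for unlike numbers was 0.11 (Day 30 well 2 and Day 113 well 3). The labels give no shared batch for a number, so a pairing of the wells is not established.

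The genes and lists were chosen with earlier results of these data known. From each neighbouring list the text names up to 3 genes with the largest rise and 3 with the largest fall among those called from Day 30 to Day 113. Gene coordinates and exon overlaps come from GENCODE, and gene spans and promoter sequences from RefSeq. Of 187 listed genes, 178 were matched to a row, 15 of them under an older symbol. A gene was left out if neither its symbol nor an older one had a row. It was also left out if several older symbols had a row, so a gene left out is not shown to be absent.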

Additional observations from a re-analysis of the deposited data

Results flagged for a closer look

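In 3 of the 70 gene and day groups of 4 wells, 1 well stood apart from its fellows by Dixon's criterion (critical value 0.829), which chance alone does in about 1 group in 20. ATF5 was at 11.8 CPM in Day 30 well 2, with the other Day 30 wells at 10.96 to 11.04 CPM. HERPUD1 was at 26.6 CPM in Day 30 well 4, with the others at 38.9 to 41.0 CPM. ASNS was at 2.71 CPM in Day 113 well 1, with the others at 1.16 to 1.36 CPM.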

How the results depend on the processing

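Of 56 called results for single genes (3 comparisons of days and the difference between intervals), 40 were called in every alternative fit run for them (21 for a comparison of days and 20 for the difference, which a fit of the 2 days alone does not give), 16 were lost in at least 1, and none reversed. At a threshold of 0.01, 15 of the 56 did not pass, of which CHAC1 and SEL1L in the second interval were lost in no alternative fit. At a threshold of 0.01, 5 rather than 9 genes fell from Day 30 to Day 60. The ATF4-arm median of the second interval was 0.99 for the amino acid enzymes and transporters alone, and the ER-arm median was 0.74 for the ER-lumen genes alone.

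With 1 well left out, the falls of the first interval numbered 5 to 11 (5 without Day 30 well 2 or without Day 60 well 3) and the rises 0 to 1 (DDIT3, without Day 60 well 3). In the second interval the rises numbered 16 to 17 and the falls 1 to 2 (CEBPB added without Day 60 well 3). Over the whole course 8 to 12 rose and 4 to 6 fell. The intervals differed for 9 to 17 genes (9 without Day 60 well 1 or without Day 60 well 3). The calls of an interval difference lost in some setting were those of ATF3 (adjusted p 0.052 to 0.17 where lost), SLC3A2 (0.053 to 0.18), PSAT1 (0.11 to 0.15), SDF2L1 (0.053 to 0.18), HYOU1 (0.050 to 0.19), PDIA4 (0.070), SLC7A11 (0.061) and CRELD2 (0.052), each in at least 1 setting that left out a Day 60 well.

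With the replicate block, 0 genes rose and 12 fell in the first interval, 18 rose and 1 fell in the second, 10 rose and 5 fell over the whole course, and 16 differed between intervals. It changed no call over the whole course. It added ATF5, TRIB3 and SESN2 in the first interval and SESN2 and SLC3A2 in the second.

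Results near 0 that did not pass the test changed sign under some settings. Under upper-quartile scaling these were ATF4 over the whole course (-0.0057), ATF3 (-0.022) and HERPUD1 (-0.030) in the second interval, and PPP1R15A (0.027) and XBP1 (0.023) in the first. ATF3 in the second interval was -0.017 with limma-voom. PPP1R15A in the first interval was 0.0048 with RLE scaling, 0.0049 with DESeq2 and 0.0087 with the 2 days alone, where XBP1 was 5.2e-04. With 1 well left out, signs changed in the first interval for ATF6 (-0.082 to 0.0076), PPP1R15A (-0.11 to 0.20), ASNS (-0.32 to 0.21), PSAT1 (-0.42 to 0.053), SHMT2 (-0.21 to 0.023), XBP1 (-0.087 to 0.076) and SDF2L1 (-0.39 to 0.11). They changed in the second interval for ATF3 (-0.23 to 0.21), PPP1R15A (-0.080 to 0.24), ASNS (-0.45 to 0.086), HERPUD1 (-0.0040 to 0.13) and MANF (-0.033 to 0.23), and over the whole course for ATF4 (-0.047 to 0.076), SESN2 (-0.21 to 0.019), DDIT4 (-0.20 to 0.030), PPP1R15A (-0.054 to 0.23) and ASNS (-0.55 to 0.14). The cause of these shifts was not tested, and differences of this size were not resolved with 3 or 4 wells a day.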
